A study of Homo sapiens with 4 samples.

Results

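Transcripts high in Arp8 knockout cells alone were taken from a microarray study of the human leukemia line Nalm-6, which has the features of precursor B cells. A transcript was selected if its signal in Arp8 KO cells lay more than 1 on the log2 scale, that is over 2-fold, above the signal on each of the 3 other arrays. The signal was scaled to the 75th percentile of its array, and the probe had to be well above background on all 4 arrays. Of 41000 probes, 21790 met the background condition and 82 (0.376%) passed both. Probes of CDKN1A, BBC3 and PHLDA3 (4 probes) were left out, which gave 78 members, 54 of them with a gene symbol, for 50 genes. The members were thus chosen by the measured difference itself, and the values below describe them and do not test it.

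The 4 cultures were the wild type (WT), a line without a working gene for actin-related protein 5 (Arp5 KO), one with the gene for actin-related protein 8 knocked out (Arp8 KO) and a culture labelled Arp8 OE. All are Nalm-6 cells. Heme, an oxidative stress inducer, was given at 20 uM for 12 h according to the treatment protocol, the titles and the design, but the treatment field of both knockouts states that none was given, and the sample source states this for Arp5 KO alone. A difference between a knockout and WT therefore cannot be told apart from one in treatment. Each group had 1 array, so no difference has a replicate check and no test between groups was made. Per the study's methods, both ARP5 alleles were disrupted to establish an Arp5 KO line. The study reports that Arp5 KO cells were viable but grew more slowly. It cites its earlier finding that conditional loss of Arp8 was lethal to cells. The history and the growth state of each knockout culture cannot be told apart from the loss of the gene.

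Arp5 and Arp8 are subunits of INO80, a complex that uses ATP to slide nucleosomes and exchange histones at promoters and at DNA breaks. Arp8 belongs to the module that holds nuclear actin and contacts linker DNA, whereas Arp5 sits on the nucleosome core. The transcription factor p53, which is stabilised by DNA damage and other stress, induces genes of cell cycle arrest, apoptosis and metabolism, among them the genes left out here.

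The arrays were of similar brightness: the 75th percentile lay between 647 and 740 signal units, 55.9 to 57.4% of probes were well above background, and no spot was saturated. Between spots of a repeated probe, the median SD of the log2 signal was 0.056 to 0.062 per array. Against the labels, the ACTR5 probe (Arp5) was lower in Arp5 KO than in WT by a log2 difference of -4.27. The ACTR8 probes (Arp8) were lower in Arp8 KO by only -0.53 and -0.68, and differed from WT by 0.02 and -0.01 on the array labelled Arp8 OE, whose label is used as a name only. Of the pre-B marker genes, all 19 with a probe were well above background on every array, and their summed signal, scaled to the 75th percentile, was lowest in Arp8 KO (451, against 477 to 562 elsewhere). In bulk RNA, a larger number of cells of some type and more RNA per cell cannot be told apart.

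The margin of a member is its log2 value in Arp8 KO minus that on the highest of the other arrays. It ranged from 1.02 to 2.71 with a median of 1.21, which is 2.32-fold. It was over 1.5 for 12 members and over 2 for 3. The same rule applied to another array gave 51 probes high in WT alone, 40 in Arp5 KO alone and 76 on the array labelled Arp8 OE alone, so a similar number was high on that array as in Arp8 KO. In the opposite direction, 126 probes were low in Arp8 KO alone. Signals of the members in Arp8 KO ran from 68.7 to 34136 units.

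**Figure D1:**
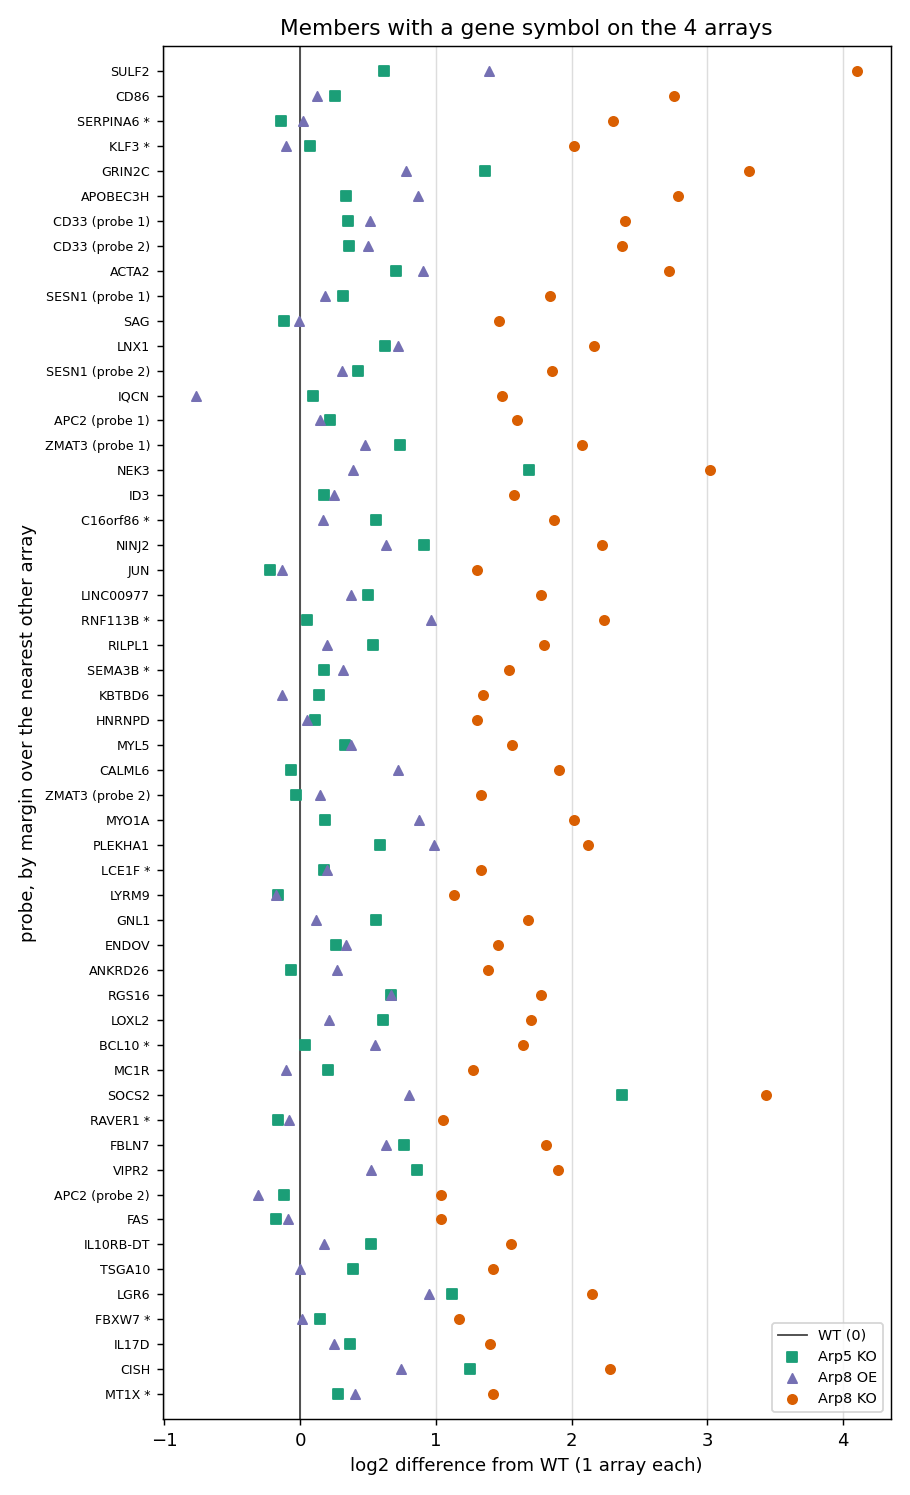
The 54 members with a gene symbol, 1 row each, ordered by margin. The x axis is the log2 difference from WT, with WT at 0, squares for Arp5 KO, triangles for Arp8 OE and circles for Arp8 KO. An asterisk marks a probe beside a spot bright on the Arp8 KO array alone. Every circle lies more than 1 to the right of the other symbols, which the selection fixed. SULF2 lies farthest right, at 4.11, and SOCS2 and NEK3 have squares well to the right of WT.

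SULF2, an extracellular sulfatase that trims heparan sulfate, had the largest margin. WT gave a log2 value of -2.76, Arp5 KO of -2.14, Arp8 OE of -1.36 and Arp8 KO of 1.35. Its level was thus lowest in WT and intermediate on the arrays of Arp5 KO and Arp8 OE, and that in Arp8 KO was 17.2-fold above WT and 6.55-fold above Arp8 OE. The 250 bases before its RefSeq start (GRCh38.p14) are shown because it led the selection. Capitals mark CCAAT, the box bound by NF-Y.
SULF2 (chr20:47786628-47786877, minus strand): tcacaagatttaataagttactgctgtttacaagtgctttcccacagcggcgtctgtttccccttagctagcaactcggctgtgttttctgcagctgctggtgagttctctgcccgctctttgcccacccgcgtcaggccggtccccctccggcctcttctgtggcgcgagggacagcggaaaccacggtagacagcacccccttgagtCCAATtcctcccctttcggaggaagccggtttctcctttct

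CD86, a costimulatory ligand of CD28 on antigen-presenting cells, followed with log2 values of -4.81 in WT, -4.55 in Arp5 KO, -4.69 in Arp8 OE and -2.06 in Arp8 KO. The 3 other arrays were within 0.26 of each other and close to the dimmest values called well above background, so its 5.65-fold margin rests on dim signals there. The other CD86 probe stayed at background throughout.

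CD33, an inhibitory sialic acid receptor of myeloid cells, was a member with both of its probes. One had log2 values of -1.61 in WT, -1.26 in Arp5 KO, -1.09 in Arp8 OE and 0.78 in Arp8 KO, and the other -2.44, -2.08, -1.94 and -0.07 in the same order. Both probes placed the arrays in the same order, and both gave a margin of 1.87. CD33 was the only gene of the 17 myeloid markers with a probe that was a member. Scaled to the 75th percentile, the summed signal of the myeloid list came to 15.1 in Arp8 KO, inside the range of 13.8 to 17.6 over the other arrays, and 75.3 to 87.0% of it came from a single CEBPA probe. Without the CD33 probes the sum was lowest in Arp8 KO, at 12.4 against 13.3 to 16.9 on the others. On all 4 arrays, 7 genes of the list had no probe well above background, among them MPO. No mature B, T or NK, erythroid or megakaryocyte marker was a member. GFI1B, of the erythroid or megakaryocyte list, did not meet the background condition. One GFI1B probe was well above background in Arp8 KO alone, with a margin of 2.95, beside a spot bright on that array alone. The other was well above background only in Arp5 KO (-3.41) and Arp8 KO (-3.25). Over the 5 tested probes of that list, the median log2 difference of Arp8 KO from WT was -0.36. The window before the CD33 start is printed because both CD33 probes were members and it held a p53 decamer, which is in capitals. This is a single copy of the repeat that p53 binds in pairs. It occurred in 3 of 43 member promoters (6.98%, against 5.16% of those of tested genes). CD33 is not in the p53 list, and the match says nothing of binding.
CD33 (chr19:51224830-51225079, plus strand): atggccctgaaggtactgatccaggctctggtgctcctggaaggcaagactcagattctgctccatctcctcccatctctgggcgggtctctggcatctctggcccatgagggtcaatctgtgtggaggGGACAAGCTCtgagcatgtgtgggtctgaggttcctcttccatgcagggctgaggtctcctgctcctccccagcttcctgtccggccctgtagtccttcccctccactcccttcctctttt

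Other members encode secreted or surface proteins. SERPINA6, the corticosteroid carrier of plasma, had log2 values of -4.11, -4.24, -4.09 and -1.80 in WT, Arp5 KO, Arp8 OE and Arp8 KO, a margin of 2.28. Its signal stood out in Arp8 KO alone, but its spot lay beside another spot bright on that array alone, and the part of this in the result was not tested. NINJ2, a ninjurin adhesion protein, had -1.54 in WT, -0.90 in Arp8 OE, -0.62 in Arp5 KO and 0.69 in Arp8 KO. SEMA3B, a secreted semaphorin, was also beside a bright spot, with a margin of 1.22, and FBLN7, a fibulin of the matrix, had a margin of 1.05. The cytokine IL17D was among the members nearest the threshold, with a margin of 1.03.

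APOBEC3H, a cytidine deaminase that restricts retroviruses, had log2 values of -3.19 in WT, -2.86 in Arp5 KO, -2.32 in Arp8 OE and -0.41 in Arp8 KO. It was 6.89-fold above WT and 3.77-fold above Arp8 OE. GRIN2C, an NMDA receptor subunit and the single member of the neuronal and ion channel list (43 probes tested), had values of -3.39, -2.02, -2.61 and -0.09 in the same array order. Its share of the list was 2.33%, against 0.376% of all tested probes. In the list, 8 probes (18.6%, against 34.0% of all tested probes) were highest in Arp8 KO. Arp5 KO was the nearest array for GRIN2C, itself 1.37 above WT, so the margin of 1.94 is smaller than the difference of 3.30 from WT.

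The p53 targets were the listed group with the most members. By share, the TNF and death receptor list was higher, with 1 member of 19 tested probes (5.26%), which was FAS. Of 110 tested probes of the p53 list, 5 (4.55%) were members, for FAS, SESN1 and ZMAT3. With CDKN1A, BBC3 and PHLDA3, 9 (8.18%) passed, against 0.376% of all tested probes. Because those genes were known as high when the list was chosen, this count is no independent evidence of direction. Over the list, 70 probes (63.6%) were highest in Arp8 KO, where 34.0% of all tested probes were. Of the 110 probes, 27 were over 2-fold above WT, against 2.47% of all tested probes, and 2 were over 2-fold below WT, against 2.77%. Both the 70 and the 27 include the 9 probes that passed, for which the rule fixed this in advance. The median log2 difference from WT over the list was 0.43, beside 0.03 over all tested probes.

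SESN1, a sestrin that restrains mTORC1, had its values in both probes in the same order. One probe had log2 values of -1.85 in WT, -1.42 in Arp5 KO, -1.54 in Arp8 OE and 0.01 in Arp8 KO, and the other -4.43, -4.11, -4.24 and -2.58. The margins were 1.43 and 1.53. ZMAT3, a zinc finger RNA-binding protein induced by p53, also had both probes selected, with margins of 1.34 and 1.18. One of them had -2.00 in WT, -1.27 in Arp5 KO, -1.52 in Arp8 OE and 0.08 in Arp8 KO. All measured probes of SESN1, ZMAT3 and CD33 were members, which held for no other gene with a symbol and several measured probes. Transcripts without a symbol were not examined for this.

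FAS, the death receptor that starts the extrinsic apoptosis pathway, was printed at 10 spots. In WT the spots averaged a log2 value of -2.33 ± 0.10, in Arp5 KO -2.50 ± 0.10, in Arp8 OE -2.42 ± 0.10 and in Arp8 KO -1.29 ± 0.11 (SD, n = 10 spots of 1 array). The spots of Arp8 KO did not overlap those of the other arrays, but only 6 of 10 spots had a margin over 1, and the range was 0.82 to 1.26. FAS was the only member of the TNF and death receptor list, of 19 probes tested (5.26%, against 0.376% of all tested probes).

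Its neighbour on chromosome 10, ACTA2, was a member too. ACTA2 encodes smooth muscle alpha-actin and had log2 values of -2.73 in WT, -2.02 in Arp5 KO, -1.82 in Arp8 OE and -0.01 in Arp8 KO. The Arp8 KO value stood 6.56-fold above WT and 3.50-fold above Arp8 OE. FAS was lower on the arrays of Arp5 KO and Arp8 OE than in WT, while ACTA2 was higher on both. The genes are transcribed from opposite strands and their starts are close together, so the windows before both starts (RefSeq, GRCh38.p14) are shown. Capitals mark the GC box GGGCGG on either strand and, in FAS, the AP-1 type sequence TGANTCA. A p53 decamer in the ACTA2 window is not marked.
FAS (chr10:88990548-88990797, plus strand): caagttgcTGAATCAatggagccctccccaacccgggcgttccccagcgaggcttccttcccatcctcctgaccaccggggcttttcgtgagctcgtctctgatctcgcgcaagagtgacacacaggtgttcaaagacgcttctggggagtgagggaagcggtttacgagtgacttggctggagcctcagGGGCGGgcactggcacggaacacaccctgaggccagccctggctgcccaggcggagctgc
ACTA2 (chr10:88991338-88991587, minus strand): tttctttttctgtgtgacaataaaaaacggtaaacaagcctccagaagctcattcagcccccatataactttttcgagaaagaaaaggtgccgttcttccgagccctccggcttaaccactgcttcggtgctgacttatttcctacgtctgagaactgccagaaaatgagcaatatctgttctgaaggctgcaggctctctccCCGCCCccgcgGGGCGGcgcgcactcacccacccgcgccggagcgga

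Of the p53 list, the first target outside the threshold was RPS27L, a ribosomal protein paralog, with a margin of 0.98. MDM2, the ubiquitin ligase of p53, had 4 probes with margins of 0.88, 0.66, 0.44 and 0.03. The left-out probes had margins of 1.83 for PHLDA3, 1.47 and 1.43 for BBC3 and 1.21 for CDKN1A. Another measured probe of CDKN1A gave 0.97. Another of BBC3, with a signal of 120849 units in Arp8 KO, gave -0.18.

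**Figure D2:**
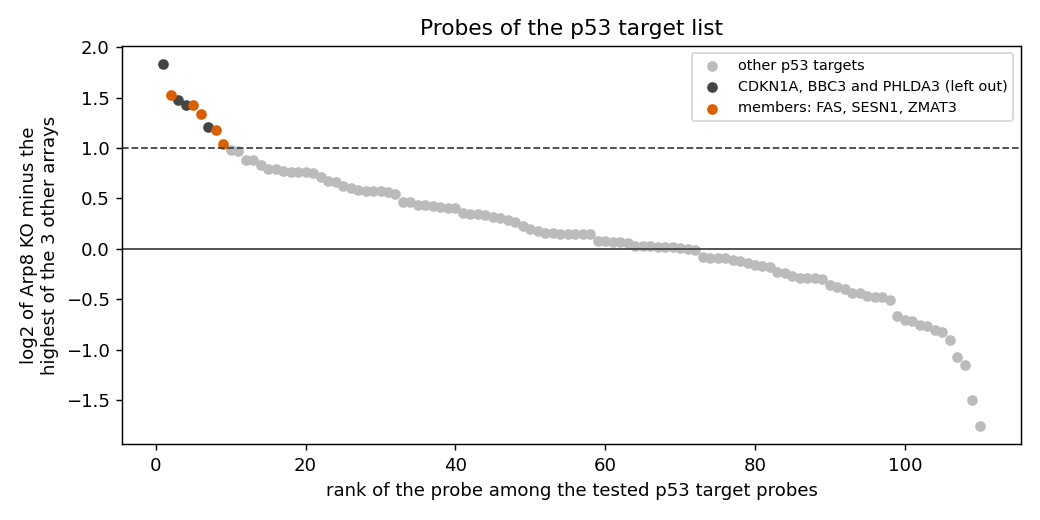
The 110 tested probes of the p53 target list, ranked by margin on the x axis. The y axis is log2 of Arp8 KO minus the highest of the 3 other arrays, and the dashed line at 1 is the selection threshold. Members are orange, the genes left out are dark and the others grey. The 9 probes above the line lead a graded distribution in which 70 of 110 lie above 0.

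Feedback inhibitors of cytokine signalling were represented by SOCS2 and CISH, both of which are induced by STAT5 and dampen JAK-STAT signals. SOCS2 had log2 values of -0.66 in WT, 1.71 in Arp5 KO, 0.14 in Arp8 OE and 2.77 in Arp8 KO. Both knockouts were above the other cultures, and the margin of 1.06 is small beside the difference of 3.43 from WT. CISH showed the same order, with -3.44 in WT, -2.70 in Arp8 OE, -2.19 in Arp5 KO and -1.16 in Arp8 KO. They were the only members among 58 tested probes of the cytokine receptor and JAK-STAT list (3.45%, against 0.376% of all tested probes), of which 24 (41.4%, against 34.0%) were highest in Arp8 KO.

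The window before the CISH start held TTCNNNGAA, the sequence type bound by STAT proteins, 4 times, as shown in capitals. This motif was added to the search after the values had been seen. It occurred in 6 of 43 member promoters, in 6.30% of promoters of all tested genes and in 7.89% of all promoters.
CISH (chr3:50611775-50612024, minus strand): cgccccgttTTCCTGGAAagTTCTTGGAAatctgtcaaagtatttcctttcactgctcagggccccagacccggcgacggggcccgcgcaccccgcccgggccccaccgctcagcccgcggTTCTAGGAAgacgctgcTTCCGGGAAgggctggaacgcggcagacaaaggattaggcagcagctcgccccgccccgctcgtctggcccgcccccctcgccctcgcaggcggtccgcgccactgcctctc

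JUN, the AP-1 subunit, was measured at 10 spots. In WT the spots averaged a log2 value of -0.04 ± 0.04, in Arp5 KO -0.26 ± 0.03, in Arp8 OE -0.18 ± 0.03 and in Arp8 KO 1.26 ± 0.06 (SD, n = 10 spots of 1 array). All 10 spots had a margin over 1, from 1.12 to 1.36, and Arp8 KO was 2.47-fold above WT. JUN differed from most members in that WT was the highest of the other arrays. It was the only member of the AP-1 and EGR list (3.33% of its probes, against 0.376% of all tested probes). In the list, 9 of 30 tested probes were highest in Arp8 KO, where 34.0% of all tested probes were.

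LOXL2, a lysyl oxidase that cross-links collagen, was the third member with 10 spots. In WT the spots averaged a log2 value of -3.62 ± 0.14, in Arp5 KO -3.01 ± 0.37, in Arp8 OE -3.41 ± 0.13 and in Arp8 KO -1.92 ± 0.08 (SD, n = 10 spots of 1 array). A single spot of Arp5 KO at -2.00 lay near the Arp8 KO spots, and 8 of 10 spots had a margin over 1. Without this spot, which the scanner software marked as an outlier, the margin of LOXL2 was 1.20 in place of 1.09.

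**Figure D3:**
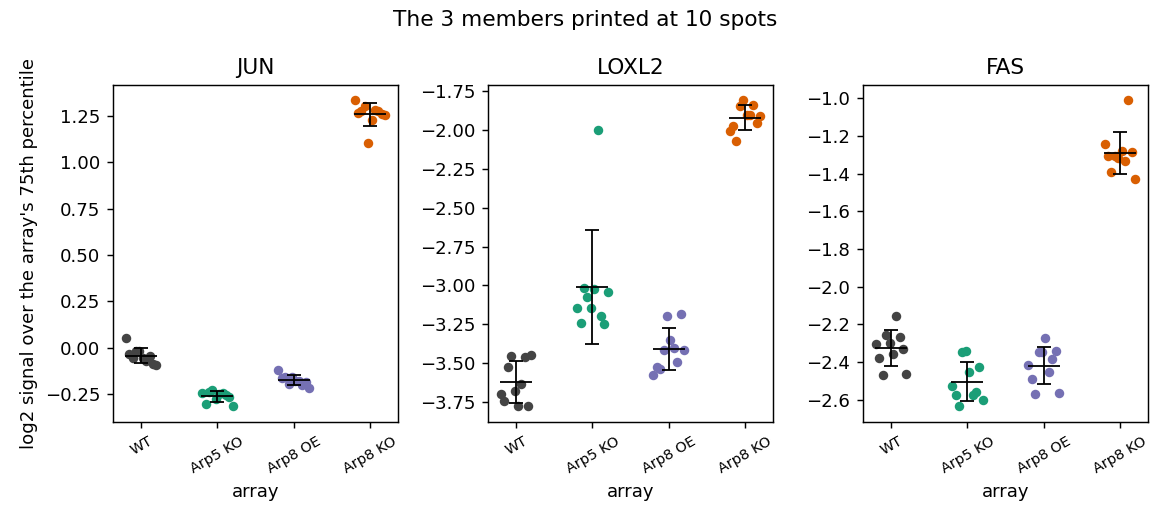
The 3 members printed at 10 spots, with 1 panel for each of JUN, LOXL2 and FAS, each with its own scale. The y axis is the log2 signal over the 75th percentile of the array, dots are the spots, and the bar gives their mean and SD, which covers the spots of 1 array only. Apart from the Arp5 KO spot of LOXL2 at -2.00, every Arp8 KO spot lies above all spots of the other arrays.

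ID3, which blocks E protein transcription factors and is known from B cell development, had log2 values of 1.51 in WT, 1.69 in Arp5 KO, 1.76 in Arp8 OE and 3.09 in Arp8 KO. The 3 other arrays were within 0.25 of each other, and the margin was 1.33. Together with LGR6, a receptor for R-spondins, it made up the members of the Wnt, Notch, Hedgehog and TGF-beta list, of 50 probes tested. LGR6 had -1.77 in WT, -0.82 in Arp8 OE, -0.65 in Arp5 KO and 0.38 in Arp8 KO, so Arp8 OE and Arp5 KO lay between WT and Arp8 KO. KLF3, a zinc finger repressor, had a margin of 1.94 beside a spot bright on the same array alone, and its further probe gave 0.18.

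Members with roles in receptor signalling included RGS16, which speeds the GTPase activity of G alpha subunits. Its log2 values of 2.15, 2.82, 2.82 and 3.92 in WT, Arp5 KO, Arp8 OE and Arp8 KO placed Arp5 KO and Arp8 OE level with each other, between the others. PLEKHA1, an adaptor with a pleckstrin homology domain, had -3.04, -2.45, -2.05 and -0.91 in that order. VIPR2, a receptor of vasoactive intestinal peptide, and MC1R, the melanocortin receptor of pigment cells, had margins of 1.04 and 1.07.

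Proteins of the ubiquitin system were LNX1, RNF113B, KBTBD6 and FBXW7, with margins of 1.44, 1.27, 1.20 and 1.03. LNX1, a ligase for Numb, had log2 values of -4.21 in WT, -3.58 in Arp5 KO, -3.49 in Arp8 OE and -2.05 in Arp8 KO. FBXW7, the substrate receptor for cyclin E and MYC, fell below the threshold with cyclic loess, at 0.995, and both it and RNF113B lay beside bright spots. NEK3, a NIMA-related kinase, had -4.46 in WT, -4.08 in Arp8 OE, -2.78 in Arp5 KO and -1.44 in Arp8 KO, with both knockouts above the others.

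MT1X, a metallothionein that binds zinc and copper, was the last member inside the threshold. Its log2 values were 4.28 in WT, 4.56 in Arp5 KO, 4.69 in Arp8 OE and 5.70 in Arp8 KO, a margin of 1.02. Its further probe gave 4.53, 4.73, 4.87 and 5.71, a margin of 0.84, and the best probe of MT1H, the gene next to it, gave 0.77. Metallothionein genes are alike in sequence, so these probes may share targets, and both MT1X spots lay beside a bright spot. The window before its start is shown because it held TGCNCNC, the core of the metal response element, 4 times, and TATAAA once (in 4.65% of member promoters and 5.66% of those of tested genes). This core was added to the search after the values had been seen, and it is short: 69.8% of member promoters and 63.4% of those of tested genes held it at least once.
MT1X (chr16:56682220-56682469, plus strand): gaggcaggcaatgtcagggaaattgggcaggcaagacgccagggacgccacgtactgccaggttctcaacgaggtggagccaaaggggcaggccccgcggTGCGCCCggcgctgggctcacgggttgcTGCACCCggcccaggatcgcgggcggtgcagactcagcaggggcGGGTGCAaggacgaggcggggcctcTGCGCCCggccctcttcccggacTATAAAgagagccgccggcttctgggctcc

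The remaining named members had margins of 1.03 to 1.47. They included SAG, the arrestin of rod photoreceptors (1.47), IQCN (1.39), C16orf86 (1.31), the noncoding RNA LINC00977 (1.27), RILPL1, which interacts with Rab proteins (1.25), APC2, a relative of the APC tumour suppressor (1.38 and 1.04), MYL5 and MYO1A, a myosin light chain and a brush border myosin (1.19 and 1.14), and the endonuclease ENDOV (1.12). HNRNPD, which binds AU-rich elements, had a margin of 1.20 with 1 probe, and 0.05 and 0.03 with its others.

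For 24 members the probe's accession had no symbol in the reference table. NM_006674 was measured by 3 of them, with margins of 1.26, 1.26 and 1.23 and the same order of arrays. One had log2 values of -0.67 in WT, -0.02 in Arp5 KO, -0.23 in Arp8 OE and 1.24 in Arp8 KO. NR_034096 was measured by a pair of probes, with margins of 1.08 and 1.03. The largest margin without a symbol was 1.59, for ENST00000439904. By kind, 55 of the 78 probes (70.5%) were for curated coding transcripts, against 74.6% of tested probes.

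Of all tested probes, 0.376% passed the rule, so at that share a list of 7 to 93 tested probes may well hold no member. The other 13 of 20 gene lists were of this size and held no member. They were the interferon and antigen presentation genes, NF-kB targets, histones, cyclins and inhibitors after CDKN1A was left out, BCL2 family and caspases after BBC3 was left out, adhesion and matrix, homeobox factors, germline genes, lysosome and autophagy, lipid metabolism, INO80 subunits, DNA repair and BACH1/NRF2 targets. None of the 38 tested probes of BACH1/NRF2 targets, the genes of heme and oxidative stress, was highest in Arp8 KO, and 13 were over 2-fold lower than in WT. Of these 38, 1 was low in Arp8 KO alone, as were 126 of all 21790 tested probes. Of 78 histone gene probes, 2 were highest in Arp8 KO, but 0 were over 2-fold lower than in WT. Their median log2 difference of Arp8 KO was -0.16 from WT, -0.30 from Arp5 KO and -0.78 from Arp8 OE. Over all tested probes, 34.0% were highest in Arp8 KO and 2.77% over 2-fold lower than in WT. In all, 12 members for 10 genes were in some list and 42 with a symbol were in none.

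The rule sets Arp8 KO apart but does not fix the order of the other arrays. WT was the lowest of these for 51 of 78 members (65.4%), against 32.8% of all tested probes. The members were higher in Arp5 KO than in WT in 60 cases (76.9%, against 51.3% of tested probes) and higher in Arp8 OE than in WT in 57 (73.1%, against 50.6%). The median differences were small, 0.26 for each, and both share the WT array. In Arp5 KO, 7 members (8.97%) lay over 1 above WT (0.615% of tested probes did), namely SOCS2, NEK3, GRIN2C, CISH, LGR6 and the transcripts BC038432 and THC2650352. On the array labelled Arp8 OE, SULF2 and BC038432 did (2.56% of the members, against 1.60% of tested probes). For 8 members the other arrays spread over more than 1, and for 40 they lay within 0.5.

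**Figure D4:**
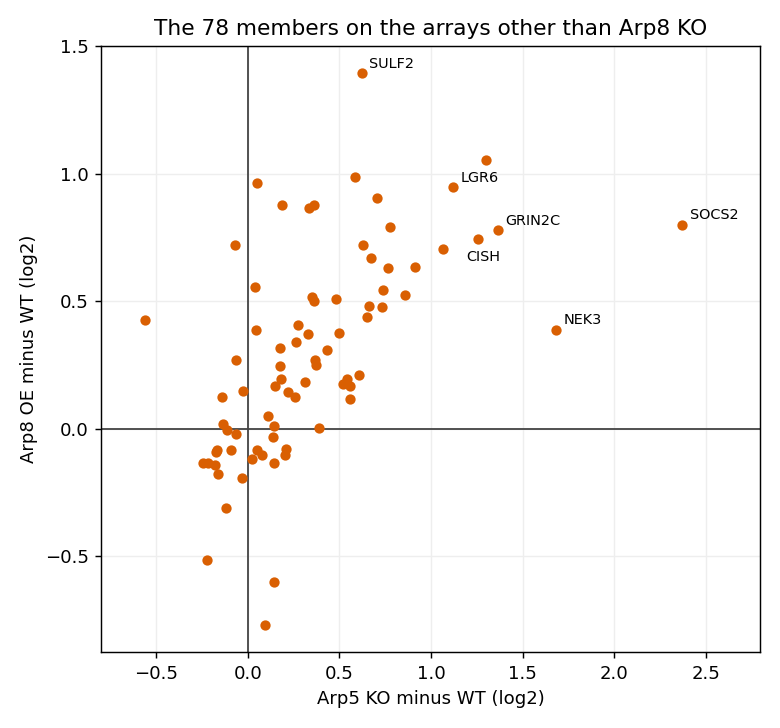
The 78 members on the arrays that were compared with Arp8 KO. The x axis is Arp5 KO minus WT and the y axis Arp8 OE minus WT, both in log2, and each dot is 1 probe. Most dots lie in the upper right, above WT on both arrays, which share the WT value. SOCS2 lies farthest right at 2.37 and SULF2 highest at 1.39.

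Further probes of the same genes, measured on the same arrays, count as such because they did not pass the rule, so their margins are a description limited by it and no independent check. They were found for 21 genes, and 17 probes of 16 genes were well above background on all arrays. Of these, 12 were highest in Arp8 KO (34.0% of all tested probes were) and 5 had a margin over 0.5 (2.48% of all tested). These were PLEKHA1 at 0.96, RGS16 at 0.94, MT1X at 0.84, SOCS2 at 0.81 and LGR6 at 0.78, of which the probes of RGS16 and MT1X lay beside a bright spot. The second SOCS2 probe had log2 values of -3.71 in WT, -3.37 in Arp8 OE, -1.74 in Arp5 KO and -0.92 in Arp8 KO, in the order of the first. VIPR2, FBXW7, CISH and ANKRD26 gave 0.47, 0.44, 0.42 and 0.26.

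For 5 genes the further probe was not highest in Arp8 KO. The values were -0.11 for C16orf86, -0.17 for GNL1, -0.28 for APC2, -0.36 for BCL10 and -0.37 for RAVER1. For BCL10, the NF-kB adaptor, the further probe had log2 values of 0.24 in WT, 0.22 in Arp5 KO, 0.17 in Arp8 OE and -0.12 in Arp8 KO, lowest where the member probe was highest. The member probes of C16orf86, BCL10 and RAVER1 lay beside a bright spot.

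**Figure D5:**
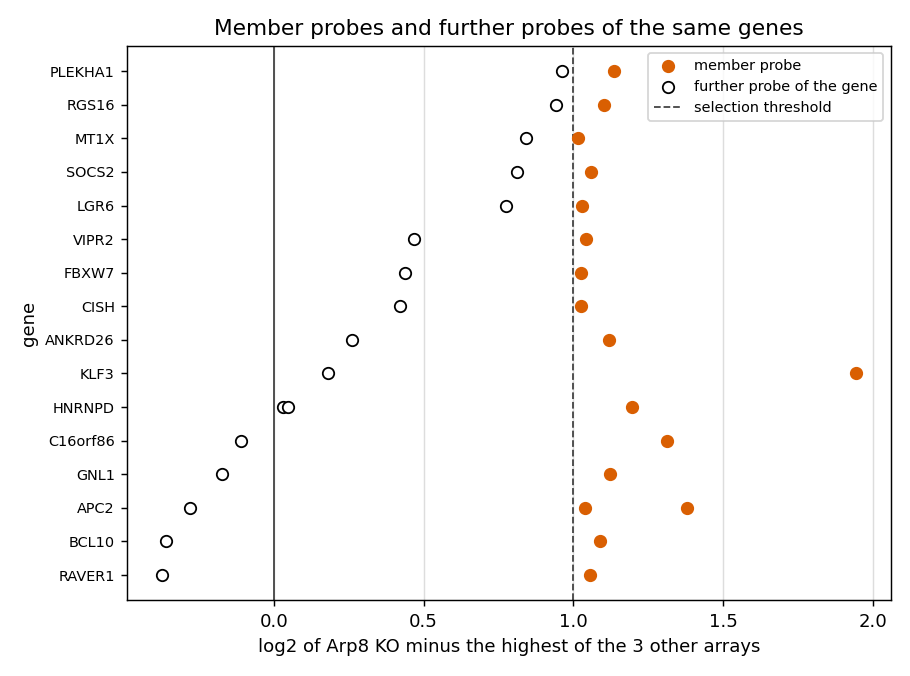
Margins of the 16 genes with a further measured probe, 1 row per gene. The x axis is log2 of Arp8 KO minus the highest of the other arrays, filled circles are member probes, open circles further probes and the dashed line the threshold of 1. The 17 open circles run from -0.37 for RAVER1 to 0.96 for PLEKHA1, and 12 lie above 0.

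The position of the spots moved with membership. Of the 78 members, 16 (20.5%) lay within 20 pixels of another spot whose signal in Arp8 KO exceeded each of the other arrays over 2-fold, against 4.82% of tested probes. These included SERPINA6, KLF3, C16orf86, RNF113B, SEMA3B, LCE1F, BCL10, RAVER1, FBXW7 and MT1X, and none of the member probes of p53 targets. The part of neighbouring spots in these results was not tested. The median margin without these probes was 1.21, as with them.

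Of the settings of scaling, background and spot summary, normexp moved the selection most. It differed in the background model, in an offset of 50 added to every spot and in the use of median spot signals, and these were not run apart. With it 26 probes passed, 25 of them members. These 25 passed under each of 8 settings of scaling, background and spot summary. With symbols they were SULF2, CD86, SERPINA6, GRIN2C, APOBEC3H, both CD33 probes, ACTA2, ID3, NINJ2, JUN, LINC00977, HNRNPD, RGS16, SOCS2 and 1 probe each of SESN1, APC2 and ZMAT3. Their median signal in Arp8 KO was 696 units, and that of the other 53 members was 152. FAS, CISH and MT1X had margins of 0.75, 0.78 and 0.98 in that setting, so they did not pass.

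The 50 genes lay on 17 chromosomes, with at most 7, on chromosome 1. Chromosome 13 held 4 of 189 tested genes, a share of 2.12%, and is named because this was the highest of any chromosome. Over all chromosomes, 50 of 11165 tested genes were members, and the difference was not tested. FAS and ACTA2 were the only pair of members next to each other among tested genes. Of 97 neighbouring genes that were no members, 33 (34.0%) were highest in Arp8 KO, against 39.8% of all tested genes. Only MT1H beside MT1X and FDXR beside GRIN2C had a margin over 0.5, at 0.77 and 0.56, and 2.99% of all tested genes did. FDXR, ferredoxin reductase, is itself in the p53 list.

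RefSeq promoter windows (250 bases before to 50 after the start) were matched for 43 of the 50 genes. Their median GC content was 62.0%, against 65.3% for tested genes. A low ratio of observed to expected CpG, under 0.4, was found in 9 (20.9%), against 10.0%. On either strand, GGGCGG occurred in 60.5% and CCAAT in 37.2% of member promoters, against 70.4% and 38.0%. TGANTCA occurred in 3 (FAS, IQCN and SAG; 6.98% against 4.02%). A p53 decamer, 1 of the pair that make up a p53 element, occurred in 3 as well (ACTA2, CD33 and IL10RB-DT; 6.98% against 5.16%), and a full p53 element in none of the windows of members or tested genes. These matches are letters in a window and say nothing of binding.

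At the threshold, the members just inside were FBXW7, IL17D, CISH, the transcript XM_003121034 and MT1X, with margins of 1.03, 1.03, 1.02, 1.02 and 1.02. Just outside were ARID3B, STK17A, BACE1, RPS27L and DOCK4, with 0.995, 0.994, 0.981, 0.980 and 0.977. The SD of a margin between spots had a median of 0.05 over 178 repeated probes, so these lie within spot error of the threshold.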

How the data were processed

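Total RNA of 4 Nalm-6 cultures was hybridised to 1-colour (Cy3) Agilent arrays, all on 1 slide with the same scan time. The authors scanned and quantified them with Agilent Feature Extraction (10.10.1.1), and the deposited files give a linear intensity for each spot. Its processed signal is background-subtracted and not normalized between arrays. The authors' deposited series matrix holds the same intensity times 1 factor per array and was used as an alternative.

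Here the log2 processed signal, less the log2 75th percentile of its array, was averaged over the spots of a probe, outlier spots included. A probe was well above background if at least 50% of its spots were flagged so. Symbols were matched by RefSeq accession to the table of GRCh38.p14 (27210 of 41000 probes). The file headers name hg19, so the coordinates of that table were used only for RefSeq sequences and for the chromosome and neighbours of genes. Since every group is a single array, no difference between groups was tested, and the depth of an array has no count; their number limits the precision. The members, gene lists and rules were chosen with earlier results of these data known. The genes named were the 25 with the largest margin, members of lists, those nearest the threshold or printed at several spots, and all their further probes, and a few others were named after their values were seen.

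The alternatives were median scaling, quantile normalization, cyclic loess, normexp (run on median spot signals), the series matrix, other treatment of outlier spots, spot summaries, background and thresholds, and leaving out an array or probes beside bright spots. Python 3.11.15, pandas 2.3.3, R 4.3.3 and limma 3.58.1 were used. The result of 1 gene list and of 1 gene is not reported here.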

Additional observations from a re-analysis of the deposited data

How the results depend on the processing

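The number of members (78) and their median margin (1.21) were within 1.5 times and within spot error under median scaling, quantile, cyclic loess, the series matrix, the outlier and spot summary settings, and without WT. Normexp gave 26 members and 3 p53 target probes in place of 5, of which 2 were members (SESN1 and ZMAT3) and the third was of RPS27L. Counting probes well above background on Arp8 KO alone gave 229 members with a median margin of 1.33. Without Arp8 OE among the arrays compared there were 238 members and 9 p53 target probes, and without Arp5 KO 135 and 10. Thresholds of 0.8, 1.5 and 2 gave 153, 12 and 3 members, with median margins of 1.02, 1.89 and 2.50 and with 9, 1 and 0 p53 target probes. Within 60 pixels in place of 20, 35 members lay beside a bright spot (44.9%, against 31.5% of tested probes). Fewer arrays or a lower threshold admit more probes by construction. The 12 further probes highest in Arp8 KO were 11 to 15 under the alternatives. Of 380 recomputed margins of 38 named probes, none changed sign and 22 were not over 1, of which 21 were with normexp. The SD between spots covers 1 array only, and 26 members lay within 1 of the dimmest value well above background on some other array. No paired analysis was possible because each group has 1 array.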

Other observations

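The background condition kept out probes that were bright in Arp8 KO and dim elsewhere. There were 151 probes well above background in Arp8 KO, at least 2-fold above each other array, and not well above background on at least 1 of those. Of these, 90 had a symbol, 116 were well above background on none of the other arrays and 2 were of the p53 target list. A further probe of the member gene NEK3 was among them. Of the 151, 101 (66.9%) lay beside a spot bright on the Arp8 KO array alone, where 20.5% of the members did, and the part of this in their signal was not tested. PCP4, a calmodulin-binding peptide of neurons, was at least 11.1-fold above the other arrays, and its spot lay beside such a spot.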
